A study of Mus musculus with 20 samples.

Results

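Gastric organoids of line 1270, in which p53 was knocked out ex vivo, were compared with organoids of line 650, in which the knockout (KO) was made in vivo. Both lines were labelled p53 KO and not dysplastic. Each had 2 libraries, so the comparison used 4 of the 20 libraries of the series and 2 of its 8 lines. The libraries were chosen by the labels for genotype, dysplasia and mode of KO, and the description covers the 13552 autosomal genes that passed a filter on low counts, of 22746 autosomal genes in the table. Genes of the sex chromosomes were set aside because Xist, the RNA of the inactive X, had 20629 counts in line 1270 and 15 in line 650, while the Y-linked Ddx3y had 1 and 544. All lines were of strain BL/6, grown in conditioned medium, with no age or further treatment in the labels. The labels do not say how the allele was removed, which part of it was removed, or in which cells.

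Other lines served as reference. Lines 300 and 1269 were wild type (WT) and not dysplastic, with 4 libraries in all, and gave the spread between lines of 1 group. Lines 794 and 801 were dysplastic, with p53 KO in vivo and 6 libraries. Lines 565 and 752 were WT and dysplastic, and entered the estimate of spread and the ranks over all 20 libraries. Line 300 had the sex-linked pattern of line 650 (12 counts of Xist, 940 of Ddx3y) and line 1269 that of line 1270 (11322 and 2), so the WT pair carries the same contrast of sex as the KO pair. With 1 line on each side, the mode of KO, the line and the sex of the line cannot be told apart.

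The tumour suppressor p53, encoded by Trp53, is a transcription factor that is stabilised by DNA damage and other stress. It switches on genes that halt the cell cycle, repair DNA or kill the cell, among them Cdkn1a, and it also switches on Mdm2, which leads to its own breakdown. The gastric gland holds surface pit cells, mucous neck cells, acid-secreting parietal cells, enzyme-secreting chief cells and endocrine cells, and gastric organoids are grown from its epithelium in a gel without the surrounding stroma.

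The 4 promoters below carry sequence features that bear on genes described later, and are shown for that reason as the 250 bases before the annotated start, from RefSeq (build GRCm38.p6), 5′ to 3′. In Cdkn1a, capitals mark a match to the p53 element, a pair of adjacent half-sites searched with at most 1 mismatch over 20 bases and none at the core C and G. In F3, Sprr1a and Ivl they mark matches to the AP-1 site, TGANTCA, the element bound by Fos and Jun. Both motifs were searched on both strands, and no matches overlapped.
Cdkn1a, chr17:29090729-29090978, plus strand: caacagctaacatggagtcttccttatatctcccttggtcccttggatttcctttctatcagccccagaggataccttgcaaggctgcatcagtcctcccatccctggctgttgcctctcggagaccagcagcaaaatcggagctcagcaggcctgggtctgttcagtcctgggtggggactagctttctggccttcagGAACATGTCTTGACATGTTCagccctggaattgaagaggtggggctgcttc
F3, chr3:121723287-121723536, plus strand: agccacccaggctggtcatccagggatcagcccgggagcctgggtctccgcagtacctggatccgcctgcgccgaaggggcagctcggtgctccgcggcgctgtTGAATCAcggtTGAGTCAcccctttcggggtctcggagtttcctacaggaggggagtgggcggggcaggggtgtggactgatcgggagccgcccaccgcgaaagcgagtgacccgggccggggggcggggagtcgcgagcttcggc
Sprr1a, chr3:92485882-92486131, minus strand: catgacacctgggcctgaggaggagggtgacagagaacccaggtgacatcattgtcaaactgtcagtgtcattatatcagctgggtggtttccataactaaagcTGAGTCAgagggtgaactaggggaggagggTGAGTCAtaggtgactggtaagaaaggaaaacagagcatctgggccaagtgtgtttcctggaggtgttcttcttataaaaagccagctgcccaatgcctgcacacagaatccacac
Ivl, chr3:92573736-92573985, minus strand: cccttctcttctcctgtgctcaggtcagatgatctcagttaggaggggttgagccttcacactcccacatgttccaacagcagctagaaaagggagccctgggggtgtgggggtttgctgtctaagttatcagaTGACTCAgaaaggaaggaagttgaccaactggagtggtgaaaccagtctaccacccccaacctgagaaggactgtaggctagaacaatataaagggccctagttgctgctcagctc

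Library quality differed within the pair. The libraries of line 1270 held 12726633 and 16323270 counts and those of line 650 held 13537743 and 9835745. Across genes, log2 levels correlated at 0.954 between the libraries of line 1270 and at 0.929 between those of line 650, and genes are not independent replicates. Library 2 of line 650 differed from library 1 with transcript length (Spearman −0.493 across genes), as did library 2 of line 300 from its partner (−0.637), while those of line 1270 differed less so (−0.128). Ribosomal protein genes, which are short, summed to 38500 CPM (read counts scaled to the size and composition of each library) in library 2 of line 650 and to 19640 CPM in library 1, and to 20120 and 23230 CPM in line 1270. Most genes named below are given with the values of both libraries, and some only with counts summed per line or a fold change.

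The targeted gene was low in both KO lines and lower in line 1270. Trp53 stood at 5.84 and 4.29 CPM in line 1270, and at 22.6 and 33.8 CPM in line 650. The 4 WT libraries ran from 103 to 162 CPM and the 6 libraries of lines 794 and 801 from 4.45 to 24.3 CPM. The libraries of lines 1270 and 650 did not overlap, and line 650 held the 1 library that exceeded all those of the other KO lines and a second inside their range. The log2 fold change, line 1270 minus line 650, was −2.43 ± 0.80 (SE, from the fit across lines). Counts over the whole gene cannot show which part of the transcript was left.

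No autosomal gene passed the test between lines (edgeR's quasi-likelihood test on counts summed per line, Benjamini-Hochberg adjusted p under 0.05): 0 of 13552, a share of 0%. At an unadjusted p under 0.05 there were 940 autosomal genes, 321 higher and 619 lower in line 1270. The smallest adjusted p was 0.129, for Fbln2. DESeq2 on the same sums called 185 autosomal genes and limma-voom on libraries with correlated lines called 29, so the count depends on the tool. Since each arm is 1 line, the spread in the tests on sums comes from the 3 groups with 2 lines. The lone lines are assumed to vary like them. The limma-voom fit on libraries also draws on differences between libraries of 1 line. Whether the lines stem from different animals is not in the labels. The p-values of the tests on sums therefore reflect no more than the spread between lines in those 3 groups, part of which may be technical.

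Across the 10134 genes with an average of at least 5 CPM, the lines 1270 and 650 lay a median of 0.293 apart on the log2 scale and the WT lines 1269 and 300 a median of 0.296. A 2-fold or larger difference was found for 8.23% of these genes in the KO pair and for 7.06% in the WT pair. Lines 794 and 801 lay 0.257 apart, with 7.25% of genes past 2-fold, and lines 565 and 752 lay 0.15 apart, with 1.59%. Thus the KO pair lay about as far apart over the genome as the WT pair, and the description below gives the median of the WT pair beside each gene list.

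By a rule of size with no test, a gene was taken as 4-fold apart when the lowest library of the higher line had at least 4 CPM and at least 4 times the highest library of the other line. In line 1270, 17 genes were 4-fold higher (0.125% of those tested) and 65 were 4-fold lower (0.48%). The same rule between the WT lines gave 42 genes higher in line 1269 than in line 300 (0.31%) and 39 lower (0.288%). Of the 17 genes, 5 were also 4-fold higher in line 1269 than in line 300 (29.4% of the KO list, 11.9% of the WT list). Of the 65, 8 were also 4-fold lower in line 1269 (12.3% of the KO list, 20.5% of the WT list). A rule that rests on fewer libraries passes more genes: with 1 library left out, 17 to 53 genes were higher and 97 to 224 lower. The 4-fold lower genes had a median transcript length of 2206.5 bases and the 4-fold higher ones of 3249, against 3309 over all genes tested; the part of length in the calls was not tested.

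The position of the 4-fold genes among the other lines is given as a description. Genes chosen for a low line 1270 are more likely to rank low there, so nothing is read from these counts. For 45 of the 65, both libraries of line 1270 lay below the range of the WT libraries, and for 38 line 1270 held the lowest value of all 20 libraries. In 52 of the 65 all 6 libraries of lines 794 and 801 were also above line 1270. Line 650 in turn lay above the WT range for 23 and overlapped it for 40. Of the 17 higher genes, line 1270 lay above the WT range for 10 and line 650 below it for 7.

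**Figure D1:**
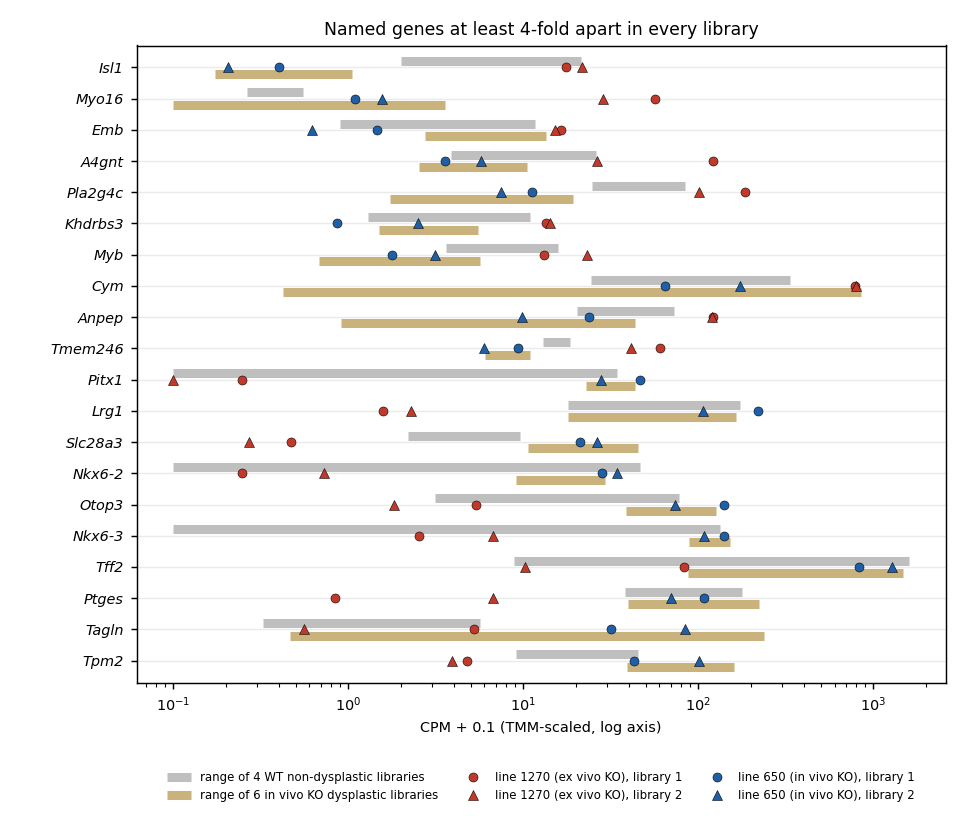
Levels of 20 of the 22 named genes that were at least 4-fold apart in every library, in CPM plus 0.1 on a log axis. Points are single libraries of line 1270 and line 650 and bars span the lowest to the highest WT and in vivo KO dysplastic library; for Myo16 and Tmem246 both red points lie to the right of both bars, and for Lrg1, Slc28a3, Ptges and Tpm2 to the left.

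Among the 10 named genes that were higher in line 1270, 7 had their highest values of the 20 libraries in that line, Myo16 and Tmem246 among them. Myo16, an unconventional myosin, stood at 56.8 and 28.3 CPM in line 1270 and at 0.986 and 1.46 CPM in line 650, with at most 0.449 CPM in WT and 3.49 CPM in lines 794 and 801 (log2 fold change 5.13 ± 1.92). Tmem246, which encodes an enzyme that modifies lipid anchors of membrane proteins, stood at 60.4 and 41.2 CPM against 9.18 and 5.85 CPM (2.70 ± 0.40), with WT at 12.9 to 18.4 CPM. Neither gene differed as much between WT lines, where the gaps were −1.10 and 0.27.

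Several of the others also varied between WT lines. Isl1, a LIM-homeodomain transcription factor, stood at 17.4 and 21.6 CPM in line 1270 and at 0.303 and 0.105 CPM in line 650, and the WT libraries ran from 1.90 to 21.2 CPM. Line 650 was thus below WT for Isl1 and line 1270 near its top. Myb, a transcription factor of proliferating progenitors, stood at 13.1 and 23.02 CPM against 1.67 and 3.03 CPM, with WT from 3.54 to 15.6 CPM. Khdrbs3, an RNA-binding protein, stood at 13.4 and 14.2 CPM against 0.759 and 2.40 CPM. Emb, a glycoprotein that carries a lactate transporter to the membrane, stood at 16.4 and 15.1 CPM against 1.37 and 0.523 CPM.

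Enzymes made up the rest. Pla2g4c, a phospholipase, stood at 184 and 100.3 CPM against 11.1 and 7.32 CPM, with WT at 24.4 to 83.7 CPM between them. A4gnt, which adds the terminal sugar of gland mucin, stood at 120.8 and 26.1 CPM against 3.49 and 5.64 CPM. Its 2 libraries of line 1270 lay far apart, and WT line 300 (25.9 and 25.2 CPM) lay close to the lower of them. Anpep, an aminopeptidase of the brush border, stood at 120.5 and 119 CPM against 23.8 and 9.72 CPM. Cym, the gene of the milk-clotting enzyme chymosin, stood at 786 and 793 CPM against 64.4 and 172 CPM, but 1 library of line 801 held 845 CPM and the fit across lines gave 2.88 ± 2.97.

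Several of the named genes that were 4-fold lower in line 1270 encode secreted proteins, membrane proteins or transcription factors. Lrg1, a secreted glycoprotein of the acute-phase response, stood at 1.48 and 2.18 CPM in line 1270 and at 220.2 and 106.6 CPM in line 650, with at least 17.9 CPM in every WT library (−6.49 ± 1.67). Slc28a3, a nucleoside transporter, stood at 0.370 and 0.172 CPM against 20.9 and 26.1 CPM (−6.43 ± 1.13), with WT at 2.11 to 9.48 CPM. Line 1270 was the lowest of all libraries for both. Ptges, which makes prostaglandin E, stood at 0.739 and 6.64 CPM against 108 and 69.3 CPM (−4.47 ± 1.53).

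A further group separated the lines in the KO pair and in the WT pair alike. They are the homeobox genes Nkx6-3, which marks the antrum, Nkx6-2 and Pitx1, the proton channel Otop3 and Tff2, the trefoil peptide of mucous neck cells. Nkx6-3 stood at 2.44 and 6.58 CPM in line 1270 and at 141 and 107 CPM in line 650, and at 0 and 0.165 CPM in WT line 1269 and 127 and 133 CPM in WT line 300. Tff2 stood at 83.0 and 10.2 CPM against 829.5 and 1281 CPM, while in WT it stood at 20.6 and 8.72 CPM (line 1269) and at 676 and 1598 CPM (line 300). Pitx1 had 2 counts in line 1270 and 875 in line 650, and was at 0 CPM in both libraries of line 1269 and at 34.2 and 33.9 CPM in line 300. Nkx6-2 had 13 counts in line 1270 and 696 in line 650. Otop3 stood at 5.25 and 1.72 CPM against 140 and 73.1 CPM, with a WT gap of −4.27 against −5.07 in the KO pair. All 5 genes were thus low in line 1269 and in line 1270, and high in lines 300 and 650. The dysplastic lines 565, 752, 794 and 801 had the Xist pattern of lines 1269 and 1270 (9731 to 23016 counts). Their libraries all lay above lines 1269 and 1270 for the 5 genes. They ran from 88.3 to 151 CPM for Nkx6-3, 22.6 to 45.3 for Pitx1 and 8.99 to 51.5 for Nkx6-2. For Otop3 they ran from 37.7 to 127 CPM and for Tff2 from 87.8 to 1651 CPM.

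Between the libraries of the lines, edgeR's quasi-likelihood test called 20 of 11837 autosomal genes higher (0.169%) and 86 lower (0.727%) in line 1270 at an adjusted p under 0.05. This compares libraries, not modes of KO. The 4-fold genes were chosen on these same 4 libraries, so calls among them were likely beforehand and are no support. The test called 9 of the 10 named higher ones, all but Cym, and 9 of the 12 lower ones, all but Tff2, Ptges and Tagln. Without library 1 of line 650, and without its library 2, it called 0 genes, and without library 1 or 2 of line 1270 it called 73 or 72 higher and 300 or 182 lower.

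Known p53 targets were mostly lower in line 1270. Of 56 listed targets that could be tested, 14 were at least 2-fold lower with no overlap of libraries and 0 were higher, while over all autosomal genes 1414 were lower by that rule (10.4%) and 492 higher (3.63%). The median log2 fold change of the list was −0.64, against −0.02 over all genes, and the WT pair had a median of 0.59 for the same list. Without library 2 of line 650 the median was −0.34, with 15 targets lower and 3 higher. Leaving out 1 of the other libraries gave 15 to 21 targets lower and 1 to 2 higher. These shares of all genes, 10.4% lower and 3.63% higher, are the background of every list count by the 2-fold rule. The rule passes more genes on fewer libraries: with 1 library left out, 610 to 939 genes were higher and 1490 to 2256 lower, the last without library 1 of line 650.

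Cdkn1a, the p21 inhibitor of cyclin-dependent kinases, stood at 26.8 and 36.0 CPM in line 1270 and at 218 and 172 CPM in line 650 (−2.61 ± 0.67). WT libraries ran from 214 to 573 CPM and those of lines 794 and 801 from 79.3 to 256 CPM, so line 1270 held the 2 lowest values of all 20 libraries and line 650 overlapped WT. Phlda3, an inhibitor of Akt signalling, stood at 2.51 and 3.15 CPM against 21.0 and 31.8 CPM (−3.12 ± 0.62), with WT at 42.4 to 128 CPM. For Phlda3 both KO lines lay below WT. Ccng1, cyclin G, stood at 89.4 and 74.9 CPM against 209 and 293 CPM (−1.56 ± 0.59), with WT at 414 to 1235 CPM and lines 794 and 801 at 78.3 to 144 CPM. The order from line 1270 over line 650 to WT was the same for Trp53, Phlda3 and Ccng1.

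Smaller gaps were seen for Dcxr, a carbonyl reductase, at 49.6 and 45.7 CPM against 161 and 109.7 CPM (−1.53 ± 0.24). Mdm2, named after its values were seen, stood at 37.9 and 40.1 CPM in line 1270 and at 59.5 and 105 CPM in line 650 (−0.97 ± 0.45), with WT from 89.7 CPM. The p53 element marked in the Cdkn1a promoter above lies before 1 of its 2 annotated starts, with its first base 51 bases before that start. Of 32851 RefSeq promoters, 19 held such a match (0.0578%), and among the 57 promoters of 46 genes that were 4-fold lower in line 1270 it was the only one.

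**Figure D2:**
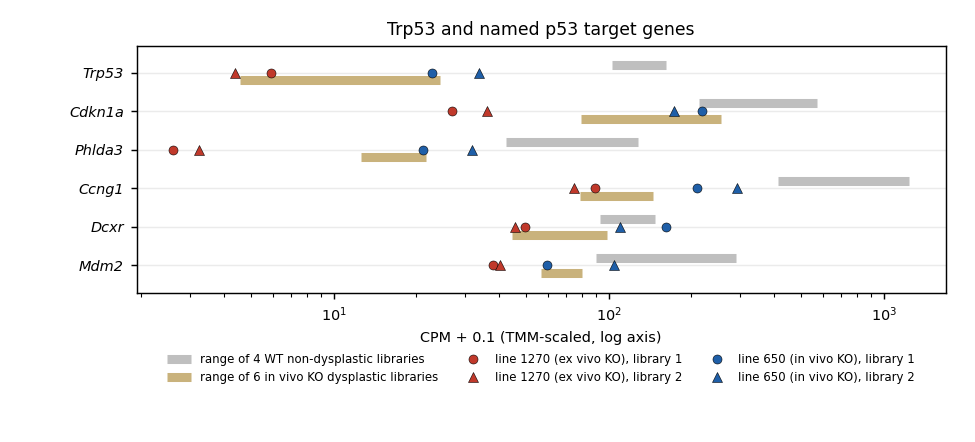
Levels of Trp53 and of 5 p53 target genes in CPM plus 0.1 on a log axis, with a point for each library of lines 1270 and 650 and bars from the lowest to the highest WT and in vivo KO dysplastic library. In each row both points of line 1270 lie to the left of both points of line 650, and for Cdkn1a, Phlda3 and Mdm2 to the left of both bars.

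The largest shift of any list with at least 10 tested members was in genes of fibroblasts, smooth muscle and stroma. Of 22 tested, 16 were at least 2-fold lower in line 1270 without overlap and 1 was higher, with a median of −2.60 (10.4% of all genes were lower by that rule). The WT pair had a median of 0.10. Without library 1 of line 650 the median was −1.72, with 14 genes lower. The summed level of the list was 121 and 76.9 CPM in line 1270 and 291 and 450 CPM in line 650, with WT at 88.4 to 152 CPM. In bulk RNA, fewer cells of a type and less RNA per cell cannot be told apart.

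Contractile genes led this group. Tagln, an actin-binding protein of smooth muscle, stood at 5.10 and 0.458 CPM in line 1270 and at 31.4 and 83.6 CPM in line 650 (−4.39 ± 3.04), with WT from 0.226 to 5.59 CPM. Acta2, smooth muscle actin, stood at 9.31 and 1.55 CPM against 35.2 and 85.0 CPM (−3.48 ± 2.51). Tpm2, a tropomyosin, stood at 4.66 and 3.84 CPM against 42.9 and 101 CPM (−3.97 ± 0.57), and here line 1270 was the lowest of all libraries. Cnn1, calponin, stood at 0.961 and 0.0573 CPM against 4.70 and 11.2 CPM, and Myl9, a myosin light chain, at 0.517 and 0.744 CPM against 3.49 and 7.003 CPM; both were named after their values were seen. For Tagln, Acta2, Cnn1 and Myl9 line 650 lay above all WT libraries, and for each of these 4 genes and Tpm2 library 2 of line 650 held the higher value. In vivo KO line 794 was also low, at 0.367 to 1.16 CPM for Tagln and 0.661 to 1.39 CPM for Acta2. Line 801 ran from 65.9 to 238 CPM and from 80.4 to 198 CPM. The gap of line 794 minus line 801 was −7.15 for Tagln, −6.77 for Acta2 and −4.44 for Cnn1, but −0.87 for Tpm2.

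The fibrillar collagens and Vim were higher in library 1 of line 650 than in its library 2, the reverse of Fbln2, Fn1 and Tnc described with this group. Col1a1, a fibrillar collagen, stood at 27.8 and 5.54 CPM in line 650, while line 1270 had 3.55 and 1.95 CPM. Col1a2 stood at 13.7 and 1.78 CPM against 1.77 and 1.49 CPM, Col3a1 at 10.7 and 1.25 CPM against 1.40 and 1.43 CPM, and Vim, the intermediate filament of mesenchymal cells, at 9.79 and 3.14 CPM against 2.59 and 2.00 CPM. These 3 were named after their values were seen. Library 1 of line 650 was thus high for collagens while library 2 was close to line 1270 and, for Col3a1, within the WT range of 0.979 to 1.497 CPM. Defining fibroblast markers were near 0: Pdgfra stood at 0.296 and 0.115 CPM against 0.455 and 0.836 CPM, and Lum at 0.0739 and 0 CPM against 0.531 and 0.105 CPM. Their part in the result was not tested.

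Fbln2, a matrix protein, had the smallest p of the test between lines, but an adjusted p of 0.229 in edgeR's quasi-likelihood test between libraries. It stood at 36.5 and 3.89 CPM in line 1270 and at 109.95 and 215 CPM in line 650 (−3.06 ± 0.22), with WT from 20.6 to 75.7 CPM and lines 794 and 801 from 130 to 449 CPM. The libraries of line 1270 differed more from each other than those of line 650. The gap between lines of 1 group was −0.06 in WT, 0.13 for lines 565 and 752 and 0.14 for lines 794 and 801. The SE rests on such gaps and not on the difference between the libraries of line 1270. Without library 1 of line 1270 the fitted change was −5.27, and edgeR's quasi-likelihood test gave it an adjusted p of 0.0113. Fbln1, a related matrix protein and the 1 gene of the list that was 2-fold higher, stood at 55.1 and 60.6 CPM against 33.4 and 17.5 CPM. Of immune cell markers 2 of 5 tested were 2-fold lower and of endothelial markers 1 of 9, with 0 higher in either list (background 10.4% lower). Their medians were −0.15 and −0.81, and those of the WT pair 0.99 and 2.54. The immune list summed to 7.69 and 7.90 CPM in line 1270 and to 10.8 and 7.21 CPM in line 650, and the endothelial list to 12.4 and 17.8 CPM against 19.6 and 18.7 CPM. The leukocyte marker Ptprc stood at 0.813 and 0.344 CPM against 0.607 and 0.209 CPM, and the endothelial Pecam1 at 0.961 and 0.0573 CPM against 1.14 and 0.105 CPM.

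**Figure D3:**
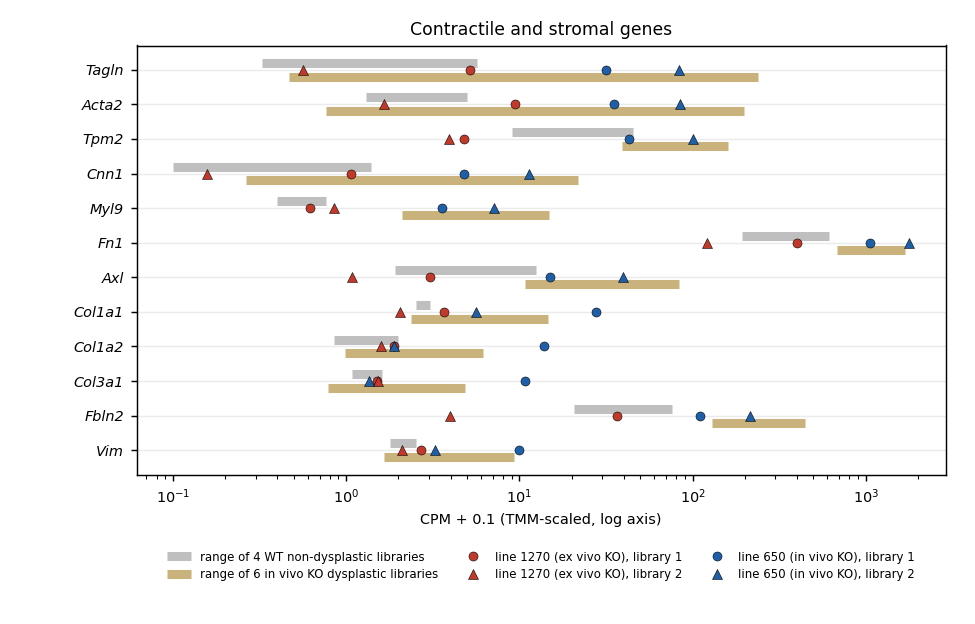
Levels of 12 contractile and stromal genes in CPM plus 0.1 on a log axis, drawn as library points for lines 1270 and 650 and range bars for the WT and the in vivo KO dysplastic libraries. For Tagln to Myl9 the triangle of line 650 (library 2) lies to the right of its circle, and for Col1a1, Col1a2, Col3a1 and Vim to the left of it.

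Genes of the epithelial-mesenchymal transition, in which epithelial cells loosen their contacts and make matrix, gave a median of −1.66 (WT pair −0.05), with 12 of 20 at least 2-fold lower and 0 higher (background 10.4% lower and 3.63% higher). Fn1, fibronectin, stood at 402 and 121 CPM in line 1270 and at 1060 and 1781 CPM in line 650 (−2.45 ± 0.50). Line 650 lay above the WT range of 193 to 618 CPM and line 1270 overlapped it. The receptor tyrosine kinase Axl stood at 2.96 and 0.973 CPM against 14.9 and 39.8 CPM, and Tnc, tenascin C, at 7.69 and 0.802 CPM against 17.9 and 36.5 CPM.

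YAP targets and genes of epithelial regeneration had 8 of 20 members 2-fold lower and 0 higher, with a median of −0.88 and 0.38 in the WT pair. Ly6a, also called Sca-1 and found in regenerating epithelium, stood at 86.5 and 75.1 CPM in line 1270 and at 349 and 757 CPM in line 650 (−2.67 ± 0.69), with WT from 473 to 1202 CPM. The secreted matrix-associated proteins Cyr61 and Ctgf stood at 62.9 and 31.8 CPM against 117 and 309 CPM, and at 131 and 125 CPM against 324 and 829.4 CPM. Line 1270 was the lowest of all libraries for Ly6a and Ctgf. Without library 2 of line 1270 the list had 5 members 2-fold lower and a median of −0.64.

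Inflammatory genes were lower as a group. Of 22 NF-kB targets and cytokines, 13 were at least 2-fold lower in line 1270 and 0 higher, and the median was −1.05 while the WT pair had 0.73. The neutrophil chemokine Cxcl5 stood at 15.4 and 5.95 CPM in line 1270 and at 64.1 and 101 CPM in line 650 (−2.95 ± 1.16). Tnf stood at 2.81 and 1.09 CPM against 7.89 and 9.20 CPM (−2.17 ± 0.42), Il1a at 3.4 and 0.859 CPM against 12.5 and 15.2 CPM, and Csf1, a macrophage growth factor, at 5.62 and 4.24 CPM against 14.9 and 30.3 CPM. For all 4 line 1270 lay below every other library and line 650 overlapped WT. Casp1, the caspase that activates interleukins and a 4-fold lower gene named after its values were seen, had 0 counts in line 1270 and 99 in line 650, and 0 CPM in WT line 1269.

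Squamous genes, which belong to the stratified forestomach and are also switched on in stressed epithelium, had 8 of 18 members 2-fold lower and 0 higher, with a median of −1.06 and 0.78 in the WT pair. Sprr1a, a cornified envelope protein, stood at 127 and 149 CPM in line 1270 and at 657 and 1085 CPM in line 650 (−2.56 ± 0.73). Ivl, involucrin, stood at 5.47 and 2.58 CPM against 26.2 and 25.6 CPM (−2.72 ± 0.64). Both were lowest in line 1270 among all 20 libraries. Keratins and junction genes had 5 of 24 lower and 0 higher, with a median of −0.51 (WT pair −0.09), or −0.29 without library 2 of line 1270. Cldn4, a tight junction protein, stood at 141 and 64.5 CPM against 341 and 737 CPM (−2.34 ± 0.47).

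Ligands and feedback regulators of the EGF receptor pointed the same way: 6 of 21 were 2-fold lower and 0 higher, with a median of −0.77 (−0.69 with the 1 member at 0 counts in a line held at 3 counts over that line), and 0.38 in the WT pair. The ligands Areg and Hbegf stood at 58.6 and 17.1 CPM against 87.1 and 135 CPM, and at 43.4 and 43.5 CPM against 82.7 and 102 CPM. Dusp6, a phosphatase that follows ERK activity, stood at 9.61 and 9.10 CPM against 32.6 and 37.5 CPM (−1.87 ± 0.76). Without library 2 of line 1270 the median was −0.35, with 4 members lower, and without library 1 of line 650 11 were lower, where the count over all genes also rose, to 2256.

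Immediate early genes, which follow mitogens and stress within minutes to hours, had 4 of 22 lower by 2-fold and 0 higher (background 10.4% lower), with a median of −0.28 and 0.20 in the WT pair. The median was −0.13 without library 1 of line 650, with 6 members lower and 3 higher, and without its library 2 it was −0.44, with 6 lower. Fos stood at 41.7 and 29.4 CPM in line 1270 and at 128 and 85.2 CPM in line 650 (−1.63 ± 0.25), with WT at 75.5 to 100.1 CPM. Ier3 stood at 54.0 and 40.5 CPM against 110.1 and 159 CPM, Dusp1 at 9.61 and 8.07 CPM against 20.4 and 29.5 CPM, and Maff at 22.8 and 18.6 CPM against 44.4 and 53.2 CPM. Each of these 4 genes was lowest in line 1270 among the 20 libraries.

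The AP-1 site marked above, which Fos-containing dimers bind, was present before 10 of the 57 matched promoters of the 4-fold lower genes (17.5%) and before 0 of the 15 promoters of the 4-fold higher genes, against 6.75% of all 32851 promoters. F3 and Sprr1a held 2 matches each and Ivl 1. F3, tissue factor, the starter of blood clotting, stood at 163 and 79.8 CPM in line 1270 and at 692 and 1119 CPM in line 650 (−2.88 ± 0.30), and was lowest in line 1270; it was named after its values were seen. The CArG box, bound by serum response factor at contractile genes, was found in 2 of the 57 (3.51%) and in 1.47% of all promoters. Tagln had no entry in the table of promoters used. A match describes letters in these windows and no binding was measured.

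Cell-cycle genes had higher levels in line 1270, by a margin that rested on library 2 of that line. All 28 genes of G2/M and mitosis and all 29 of S phase and replication had a positive log2 fold change, with medians of 1.03 and 1.01, and 13 and 14 of them were at least 2-fold higher without overlap (background 3.63%). The WT lines 1269 and 300 had medians of 0.83 and 0.64 for the same lists. Without library 2 of line 1270 the counts were 1 and 0 and the medians 0.48 and 0.44, without library 1 of that line 25 and 21, without library 1 of line 650 8 and 7, and without library 2 of line 650 25 and 27.

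The values show the order of the libraries. Plk1, a mitotic kinase, stood at 74.1 and 171 CPM in line 1270 and at 42.9 and 53.1 CPM in line 650 (1.48 ± 0.44), with WT from 62.3 to 155 CPM. Mcm5, a subunit of the replicative helicase, stood at 130.2 and 279 CPM against 60.0 and 101 CPM (1.503 ± 0.43), with WT from 141 to 276 CPM. Bub1b and Cdt1, which guard chromosome attachment and license replication, stood at 81.8 and 173 CPM against 49.9 and 58.2 CPM, and at 34.7 and 72.3 CPM against 21.3 and 25.1 CPM. For these 4 genes line 650 lay below every WT library and library 2 of line 1270 above every WT library. Library 1 of line 1270 lay within the WT range for Plk1 and Bub1b and below it for Mcm5 and Cdt1.

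DNA repair genes followed, with 25 of 27 positive, 10 at least 2-fold higher and a median of 0.81 (WT pair 0.57). Exo1, an exonuclease of mismatch and break repair, stood at 19.3 and 40.9 CPM against 8.50 and 14.2 CPM (1.56 ± 0.59), and Fanca, a Fanconi anaemia protein, at 32.2 and 49.7 CPM against 14.8 and 22.0 CPM. Without library 2 of line 1270, 0 repair genes were 2-fold higher. Of the 2 negative members, both named after their values were seen, Mgmt, which removes alkyl groups from guanine, had 2 counts in line 1270 and 155 in line 650, and Rad51b, a recombination protein, stood at a log2 fold change of −0.55 with overlapping libraries. WT libraries held 8.08 to 17.2 CPM of Mgmt. In vivo KO line 794 held 0 to 0.081 CPM of it and line 801 held 2.72 to 4.36 CPM.

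Stem cell and Wnt target genes had 7 of 21 members 2-fold higher and 1 lower, with a median of 0.77 and 0.38 in the WT pair. Axin2, a feedback inhibitor of Wnt signalling, stood at 15.3 and 24.7 CPM in line 1270 and at 6.37 and 5.44 CPM in line 650 (1.81 ± 0.99), and line 650 was the lowest of all libraries. Ascl2, a stem cell transcription factor, stood at 9.02 and 26.0 CPM against 5.08 and 6.69 CPM, and Sox9 at 107 and 79.2 CPM against 44.2 and 36.6 CPM. The hyaluronan receptor Cd44 was the lower member, at 99.7 and 75.9 CPM against 170 and 260 CPM. Without library 2 of line 1270 the list had a median of 0.39, with 5 members higher.

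Chief cell genes had 5 of 7 tested members at least 2-fold higher in line 1270 and 0 lower, with a median of 2.51, where the WT pair had −3.08. Gif, intrinsic factor, stood at 1182 and 162 CPM in line 1270 and at 66.7 and 38.5 CPM in line 650 (3.50 ± 1.98). Pgc, progastricsin, stood at 646 and 126 CPM against 43.3 and 39.0 CPM, and Tnfrsf19 at 12.6 and 37.8 CPM against 5.61 and 3.66 CPM. Bhlha15, the transcription factor Mist1 of mature secretory cells, stood at 27.2 and 32.1 CPM against 19.0 and 6.38 CPM. Line 650 overlapped the WT range for all 4. Gif, Pgc and Tnfrsf19, with WT ranges of 7.40 to 308, 7.49 to 434 and 4.29 to 25.7 CPM, exceeded those ranges in 1 library of line 1270 each. Without library 1 of line 1270 the median of the list was 1.60.

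Mucous neck genes and those of spasmolytic metaplasia were mixed: 2 of 16 were 2-fold higher and 6 lower, with a median of −0.56 and −0.59 in the WT pair. Pigr, the epithelial carrier of secreted antibodies, stood at 316 and 470.0 CPM in line 1270 and at 3471 and 938 CPM in line 650, and Glipr1 at 50.6 and 57.8 CPM against 86.8 and 289 CPM. Without library 1 of line 1270 the median was −1.18, with 9 members lower, and without library 2 it was −0.24; without library 2 of line 650, 3 members were lower. Surface pit genes had 0 of 13 past 2-fold and a median of 0.29 (WT pair −1.38). The 2 libraries of line 1270 pointed opposite ways: without library 1 the median was −0.84, with 5 of 12 lower, and without library 2 it was 1.39, with 8 of 13 higher. Muc5ac, the surface mucin, named after its values were seen, stood at 421 CPM in library 1 and 1.77 CPM in library 2 of line 1270, against 2.20 and 1.46 CPM in line 650.

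Of 22 regional transcription factors tested, 1 was 2-fold higher and 2 were lower (background 3.63% and 10.4%), with a median of 0.20 and −0.06 in the WT pair. The higher one was Irx5, named after its values were seen, with 11 counts in line 1270 and 0 in line 650, and the lower ones were Nkx6-3, described above, and Pdx1. Pdx1, which marks the antrum and duodenum, stood at 13.6 and 14.1 CPM in line 1270 and at 44.1 and 35.8 CPM in line 650 (−1.52 ± 0.35), with line 1270 below and line 650 above the WT range of 21.2 to 34.0 CPM. Gata4 stood at 319 and 306 CPM against 241 and 98.3 CPM, and Gata5 at 119 and 127 CPM against 91.0 and 68.7 CPM. Among intestinal genes, 1 of 15 was 2-fold higher and 6 were lower (background 10.4% lower), with a median of −0.54 and −0.16 in the WT pair. Their median was −1.15 without library 1 of line 1270, and without library 1 of line 650, 4 were higher and 6 lower. Cdx2, the intestinal homeobox gene, stood at 1.03 and 0.916 CPM against 6.45 and 5.43 CPM, lowest in line 1270, while Vil1, villin, stood at 137 and 135 CPM against 419 and 245 CPM (−1.32 ± 0.24).

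Hypoxia and glycolysis genes had a median of −0.66 (WT pair 0.24) that rested on 1 library. Egln3, an oxygen sensor, stood at 86.9 CPM in library 1 and 437 CPM in library 2 of line 1270, and at 1329 and 836 CPM in line 650. Bnip3, a mitophagy receptor, stood at 13.01 and 124 CPM against 193 and 335 CPM, and Adm, adrenomedullin, at 3.47 and 20.4 CPM against 69.5 and 52.99 CPM. Library 1 of line 1270 was far below library 2 for all 3. In the list 6 of 25 members were 2-fold lower; without library 1 of line 1270 there were 2, with a median of −0.17, and without library 2 there were 21, with a median of −1.5.

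**Figure D4:**
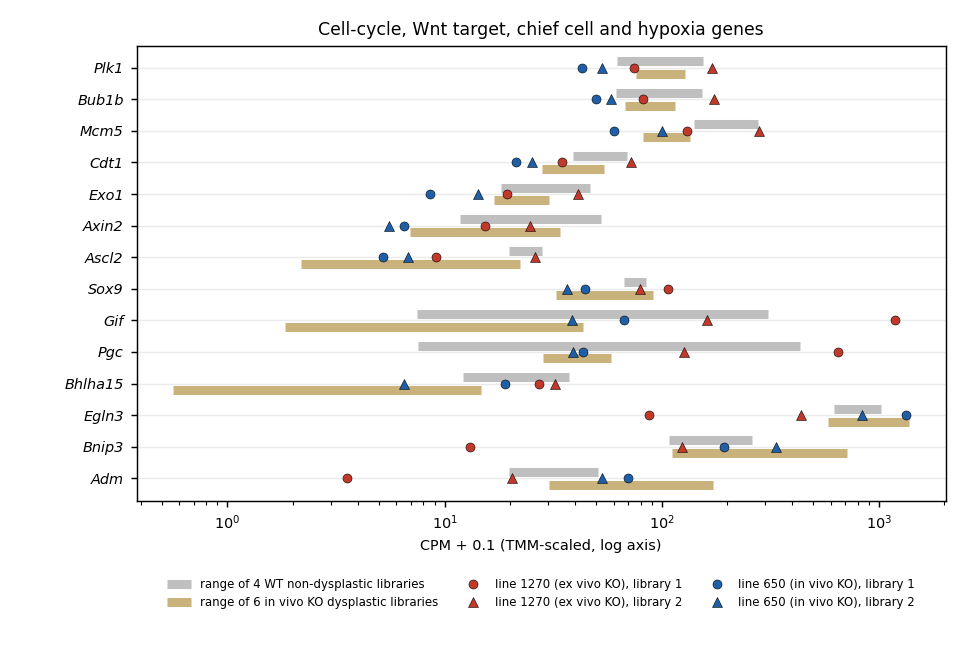
Levels of 14 cell-cycle, Wnt target, chief cell and hypoxia genes in CPM plus 0.1 on a log axis, with library points for lines 1270 and 650 and range bars for the WT and in vivo KO dysplastic libraries. The triangle of line 1270 (library 2) lies to the right of its circle from Plk1 to Exo1 and for Egln3, Bnip3 and Adm, and to the left of it for Gif and Pgc.

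Some of the remaining lists are given here by their counts and medians, and the others are not reported. Basement membrane genes had 4 of 18 2-fold higher and 6 lower (background 3.63% and 10.4%), with a median of −0.49 and 0.36 in the WT pair. Leaving out library 2 of line 1270 gave 3 higher and 2 lower, with a median of −0.21. Examples were Lamb1, a laminin chain, at 10.5 and 4.35 CPM against 39.6 and 64.2 CPM and Nid2, nidogen, at 33.9 and 29.1 CPM against 13.4 and 8.36 CPM. Interferon response genes had 1 of 30 higher and 1 lower, with a median of −0.24 and 0.43 in the WT pair. The median was −0.06 without library 2 of line 650; without its library 1, 6 members were lower, and without library 1 of line 1270, 4 were higher and 3 lower. Antigen presentation genes had 4 of 15 lower and 0 higher (background 10.4% lower), with a median of −0.39 and −0.19 in the WT pair, or −0.70 without library 1 of line 1270. B2m, the light chain of class I molecules, stood at 90.2 and 71.7 CPM against 112 and 146 CPM. Targets of the oxidative stress factor NRF2 and glutathione genes had 0 of 28 past 2-fold in either direction, with a median of −0.28 and −0.68 in the WT pair. Of them, 10 were lower without library 1 of line 1270, with a median of −0.69. Genes of fatty acid oxidation and the peroxisome had 4 of 19 lower and 0 higher, with a median of −0.22 and −0.41 in the WT pair. Their median was 0.21 without library 1 of line 650, −0.55 without library 1 of line 1270 and −0.07 without its library 2, with 2 to 6 lower. In this list Angptl4, an inhibitor of lipoprotein lipase, stood at 4.29 and 0.573 CPM against 18.6 and 33.4 CPM (−3.47 ± 0.49), and Plin2, a coat protein of lipid droplets, at 47.7 and 26.8 CPM against 141 and 228 CPM (−2.28 ± 0.34).

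**Figure D5:**
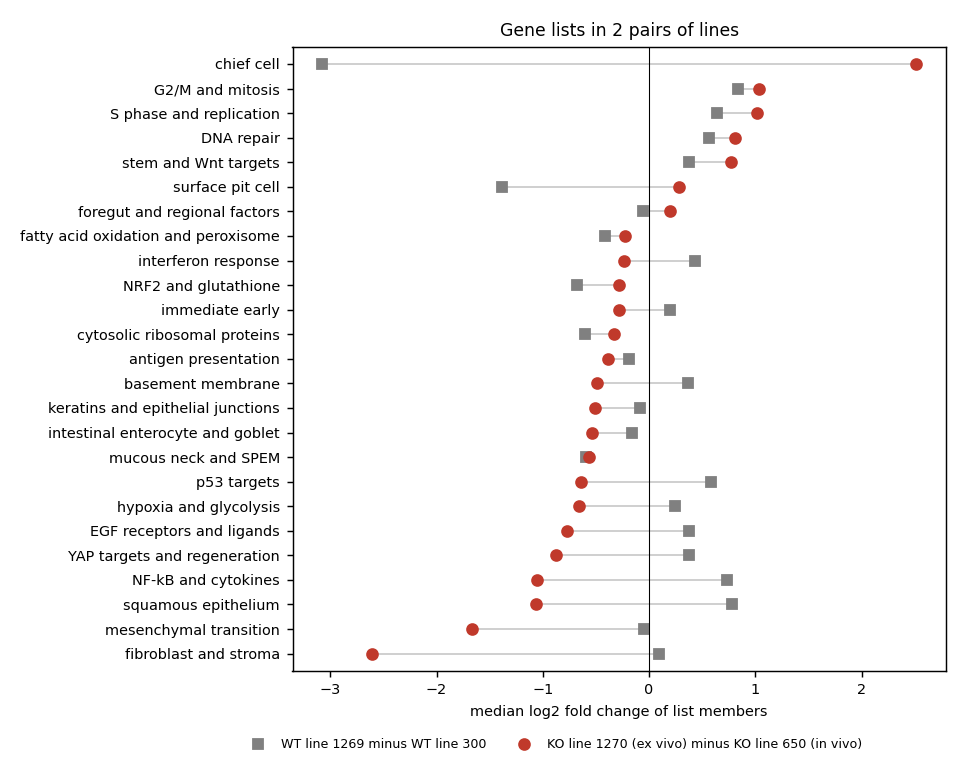
Median log2 fold change of 25 gene lists in the KO pair (line 1270 minus line 650, circles) and in the WT pair (line 1269 minus line 300, squares). The fibroblast list is lowest in the KO pair at −2.60, with 0.10 in the WT pair; the chief cell list is highest at 2.51, with −3.08; and the G2/M and S phase lists are positive in both pairs.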

How the data were processed

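Messenger RNA of mouse gastric organoids was measured by sequencing. Per the labels' protocols, total RNA went into an mRNA library kit. The submitters' processing notes name STAR 2.5, bcl2fastq and mm9. Annotation, counter and strand setting were not given in the sources used here; therefore reads of overlapping, antisense or near-identical genes cannot be assigned with certainty. The deposited values are raw counts per gene symbol, with 92 spike-in rows that held 0 counts and were left out. Symbols were assigned to chromosomes with a RefSeq table (GRCm38.p6), where 22452 matched directly, 1366 by an older symbol and 229 not at all.

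The main test summed counts per line over all 8 lines, kept 14057 genes with filterByExpr, scaled by TMM and fitted 1 mean for each of 5 groups, with 3 residual degrees of freedom (edgeR 4.0.16, R 4.3.3, robust quasi-likelihood, adjusted over all 14057 genes). SE is the log2 fold change divided by the square root of F. The second test compared the 4 libraries. Both were also run on simulated data, with an outcome that is not reported here and from which nothing is read. Levels are CPM per library, TMM-scaled over 20 libraries. DESeq2 1.42.0 and limma 3.58.1 gave alternatives, as did other size factors, filters, folds and floors, and leaving out each library. At the smaller total of the pair, 9835745 counts, 1 CPM is just under 10 counts.

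The members and the gene lists were chosen with earlier results of these data known, so lists have counts and medians and no test. Named genes were Trp53; up to 12 in each direction with the largest log2 fold change among 4-fold genes with at least 10 CPM in both libraries of the higher line; genes called between lines; and up to 4 members of each list with at least 5 CPM in both libraries of the higher line, no overlap of libraries and the largest change. Uncharacterised symbols were passed over. Of the 12 genes lower by the 4-fold part of that rule, 2 are not reported here.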

Additional observations from a re-analysis of the deposited data

Results flagged for a closer look

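Of 46 group checks (the 22 named 4-fold genes and Trp53, in the 4 WT non-dysplastic and the 6 in vivo KO dysplastic libraries), 8 had 1 library far from the rest of its group. The cut-off marks about 1 in 20 by chance only for independent draws from 1 population. Each group here holds 2 lines, so that rate need not apply. In WT, library 1 of line 1269 stood apart for Myb, at 15.6 CPM where the other 3 ran from 3.54 to 4.09, for Cym, at 335 CPM where the others ran from 24.4 to 66.5, and for Tmem246, at 18.4 CPM where the others ran from 12.9 to 13.6. Library 3 of line 801 stood apart for Cym, at 845 CPM where the other 5 ran from 0.324 to 277, for Nkx6-2, at 29.1 CPM against 8.99 to 12.97, for Tagln, at 238 CPM against 0.367 to 74.0, and for Tpm2, at 159 CPM against 39.2 to 80.6. Library 3 of line 794 stood apart for Tff2, at 1477 CPM where the others ran from 87.8 to 383. The total of library 3 of line 801, 5669521 counts, was the lowest of the series.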

How the results depend on the processing

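The test between lines called 0 genes, and 0 with the other size factors tried; it called 1, Fbln2, with no filter and without library 1 of line 1270 (0 to 1 over the libraries left out), 185 with DESeq2 and 29 with limma-voom. Of the 17 4-fold higher and 65 lower genes, DESeq2 called 5 and 38 and limma-voom 2 and 13, against totals of 185 and 29 autosomal genes. The 4-fold genes were chosen on the same data, so these overlaps are no support. The 4-fold counts of 17 higher and 65 lower became 65 and 270 at 2-fold, 8 and 21 at 8-fold, 33 and 118 with a floor of 1 CPM, and 10 and 43 with a floor of 10 CPM; leaving out 1 library gave 17 to 53 higher and 97 to 224 lower. The library test, with 20 higher and 86 lower, gave 13 and 56 with DESeq2 size factors, 221 and 596 with no filter, 115 and 379 with DESeq2, and 0 to 73 higher and 0 to 300 lower with 1 library left out. With the replicate number as a block it called 238 higher and 618 lower; the correlation of same-numbered deviations over the 2 pairs was 0.179 across genes, and the labels give the number no further meaning, so the samples share only a number. Over 37 lists, 5 had a median of 0.5 or higher, and 2 to 8 did with 1 library left out; 12 had a median of −0.5 or lower, and 9 to 17 did. Changes of sign were followed for only some of these lists. Among those followed, the median of surface pit genes changed sign (−0.84 without library 1 of line 1270 and 1.39 without library 2). So did that of regional factors (−0.14 without library 2 of line 650 and 0.54 without library 1). That of fatty acid oxidation and peroxisome genes also did (0.21 without library 1 of line 650 and −0.55 without library 1 of line 1270). The last was that of ribosomal proteins (0.13 and −0.80 in the same order as regional factors). None of the 133 named genes changed direction under other scalings or with 1 library of the pair left out, but 112 of 798 values moved by at least the spread between libraries. Apart from Trp53, these genes were chosen for libraries that do not overlap, so their direction could hardly change and nothing is read from this. With plain library totals the median of all genes was 0.08 in place of −0.02. The causes were not tested. At the depth of these libraries, genes near 1 CPM rest on about 10 counts and gaps between them are not resolved.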
